A study of Mus musculus with 20 samples.

Results

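The enzymes that carry acetyl units along the mevalonate pathway as far as farnesyl and geranylgeranyl diphosphate were examined in mouse intestinal tissue. The set was named as 8 genes in pathway order: Acat2, Hmgcs1, Mvk, Pmvk, Mvd, Idi1, Fdps and Ggps1. All probes whose gene name in the array files equalled a member were taken, and 7 of the 8 genes had such a probe, 15 probes in all, out of 25034 gene symbols named on the array. Acat2 had none. The study compared 4 groups of C57BL6/j mice on 20 arrays, 1 mouse per array. Cre control mice (6 arrays) carried VillinCreER/0 and BRAFV600E mice (6 arrays) carried VillinCreER/0/BrafV600E-LSL/+. Both were 8 to 12 weeks old, received tamoxifen on 3 consecutive days and were sampled 3 days after the last dose, so the Cre transgene and tamoxifen were common to both groups. MEKi mice (4 arrays) received the MEK inhibitor PD184352 on 3 consecutive days after 2 days of tamoxifen, and Vehicle mice (4 arrays) the DMSO and Cremophor EL carrier in its place. Their BRAFV600E genotype is known from the study's legends and not from the sample labels, and their age is given only by the study's general methods, as 8 to 12 weeks at induction. The Villin promoter drives Cre in gut epithelium, whereas RNA came from intestinal tissue as a whole, in which fewer cells of a type and less RNA per cell cannot be told apart. The first comparison asks what induction of the mutant kinase did to these transcripts, and the second what inhibition of MEK, the kinase directly downstream of BRAF, did to them.

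The mevalonate pathway builds isoprenoids from acetyl-CoA in the cytosol. Thiolase joins acetyl units, HMG-CoA synthase adds a further one, and, once mevalonate has formed, a pair of kinases and a decarboxylase turn mevalonate into isopentenyl diphosphate. Isomerisation and chain elongation then give farnesyl diphosphate, the branch point between sterols, dolichol, heme A, the ubiquinone side chain and prenylated proteins. Most of these genes are classical targets of SREBP2, the membrane-bound transcription factor released when cells run short of sterol. The intestine is a major site of sterol synthesis as well as of sterol uptake.

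Signal is given throughout as normalised log2 signal, the log2 processed signal of a probe minus the 75th percentile of its array, so that 0 is the brightness of the 75th percentile spot and a difference of 1 is a doubling. Probes differ in affinity, so a difference between probes on the same array is read only for its change between groups. Of the spots on an array, 60.8% to 76.8% were well above background and 0 were saturated. Markers of gut epithelium were bright on all 20 arrays (mean over the 9 markers 5.69 to 6.73). The array labelled Vehicle replicate 2 stood apart: its exocrine pancreas markers averaged 7.14, against -4.60 to -4.23 on the other 3 Vehicle arrays and -4.48 to -3.79 on the MEKi arrays, and its proximal small intestine markers averaged 3.92 against 2.03 to 2.09. BRAFV600E replicate 2 had an enterocyte level of 5.11 against 6.43 to 7.02 on the other BRAFV600E arrays. Its distal small intestine markers averaged -2.10, against -0.50 to 1.16 on the other BRAFV600E arrays and 0.28 to 1.11 on the Cre control arrays. Results are therefore also given without Vehicle replicate 2 and without BRAFV600E replicate 2. All 6 Cre control arrays shared a slide with BRAFV600E replicates 1 and 2, BRAFV600E replicates 3 to 6 lay on a slide of their own, and the MEKi and Vehicle arrays filled separate rows of slide 3, so row and treatment cannot be told apart there. Y-linked signal above -2 was found on 3 of 6 Cre control, 4 of 6 BRAFV600E, 4 of 4 MEKi and 2 of 4 Vehicle arrays, so sex was not balanced between the groups of the inhibitor experiment.

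The promoters of the members are shown first. The 150 bases before the RefSeq start of 6 members follow (build GRCm38.p6, 5′ to 3′ on the gene's own strand). Capitals mark CCAAT (the letters bound by NF-Y), GGGCGG (the core of a GC box, bound by Sp1-family factors) and TCACNCCAC (letters of the classical sterol regulatory element), each on either strand, so that opposite-strand matches read ATTGG and CCGCCC.
Hmgcs1: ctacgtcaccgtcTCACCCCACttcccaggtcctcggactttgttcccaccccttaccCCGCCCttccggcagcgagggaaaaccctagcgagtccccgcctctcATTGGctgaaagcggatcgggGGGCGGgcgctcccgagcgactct
Mvk: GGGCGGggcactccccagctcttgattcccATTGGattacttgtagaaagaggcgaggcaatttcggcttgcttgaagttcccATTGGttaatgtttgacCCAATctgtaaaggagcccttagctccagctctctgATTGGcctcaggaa
Pmvk: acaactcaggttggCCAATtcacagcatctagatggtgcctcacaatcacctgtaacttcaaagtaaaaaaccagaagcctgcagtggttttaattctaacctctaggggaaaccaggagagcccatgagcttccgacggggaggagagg
Mvd: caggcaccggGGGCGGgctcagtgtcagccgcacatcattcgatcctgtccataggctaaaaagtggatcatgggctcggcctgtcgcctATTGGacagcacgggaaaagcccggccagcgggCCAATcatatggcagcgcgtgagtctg
Idi1: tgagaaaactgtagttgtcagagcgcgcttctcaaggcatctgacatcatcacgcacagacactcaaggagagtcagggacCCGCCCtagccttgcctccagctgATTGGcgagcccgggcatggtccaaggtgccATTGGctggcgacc
Ggps1: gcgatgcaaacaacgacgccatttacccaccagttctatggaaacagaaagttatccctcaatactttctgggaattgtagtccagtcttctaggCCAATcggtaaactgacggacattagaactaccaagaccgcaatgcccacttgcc
These windows lie at chr13:119690201-119690350 (plus strand) for Hmgcs1, chr5:114444119-114444268 (plus) for Mvk, chr3:89454391-89454540 (plus, 1 of 2 listed starts) for Pmvk, chr8:122443423-122443572 (minus) for Mvd, chr13:8885456-8885605 (plus) for Idi1 and chr13:14063489-14063638 (minus) for Ggps1. Over the 250 bases before the start, 7 of the 8 members had a window, the 6 above and Acat2, which had no probe. Fdps had no window and is not in these counts. Of the 7 members, 6 held CCAAT, against 33.8% of the 32851 windows in the table, and 5 held GGGCGG, against 32.7%. Members were counted by gene and the background by window. Pmvk was counted through the window shown, and the window of its second start (chr3:89459421-89459570) held none of the motifs searched. TCACNCCAC was found in Hmgcs1 alone, from 137 to 129 bases before the start, and in 1.05% of all windows. The E-box CACGTG was in none of the 7 and in 6.02% of all windows. The Mvk window is the space between divergent genes, since the start of Mmab, which encodes a cobalamin adenosyltransferase, lies 242 bases away on the opposite strand. A match of letters is a description and no binding was measured. Fixed letters were searched, so an element with other letters would be missed. Any part of these promoters in the enzymes' changes was not tested.

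In BRAFV600E tissue the transcripts of 6 of the 7 measured enzymes rose relative to Cre control tissue, from HMG-CoA synthase to farnesyl diphosphate synthase, by 1.72-fold (Pmvk) to 2.97-fold (Fdps). Among all 18869 genes tested, 6.47% were called higher and 6.58% lower. The groups did not overlap for 5 of these 6 enzymes, against 4.25% of all genes that lay apart in that direction. The enzyme after the branch point, Ggps1, was not called. Calls are limma tests at a Benjamini-Hochberg adjusted p under 0.05 over all genes and their precision is limited by how many arrays there were. The 7 members had a median log2 fold change of 1.01, beside -0.02 over all genes.

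In the inhibitor experiment the order was the reverse. MEKi tissue had lower transcripts of 4 of the 7 enzymes than Vehicle tissue (Hmgcs1, Mvk, Idi1 and Fdps), where 0.892% of 19177 genes were called lower and 1.05% higher. All 4 MEKi arrays lay below all 4 Vehicle arrays for 6 of the 7 enzymes, against 5.83% of all genes. The median log2 fold change of the 7 members was -1.05, beside 0.04 over all genes. These calls rested on few arrays: without Vehicle replicate 2, which carried the pancreatic signal, Fdps (log2 fold change -1.24, SE 0.17, adjusted p = 0.0223) and Mvk (-1.53, SE 0.17, adjusted p = 0.0152) passed, whereas Hmgcs1 (-1.06, adjusted p = 0.0642) and Idi1 (-0.90, adjusted p = 0.0707) did not. With the Y-linked level as a covariate only Mvk was called (-1.58, adjusted p = 0.0497).

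**Figure D1:**
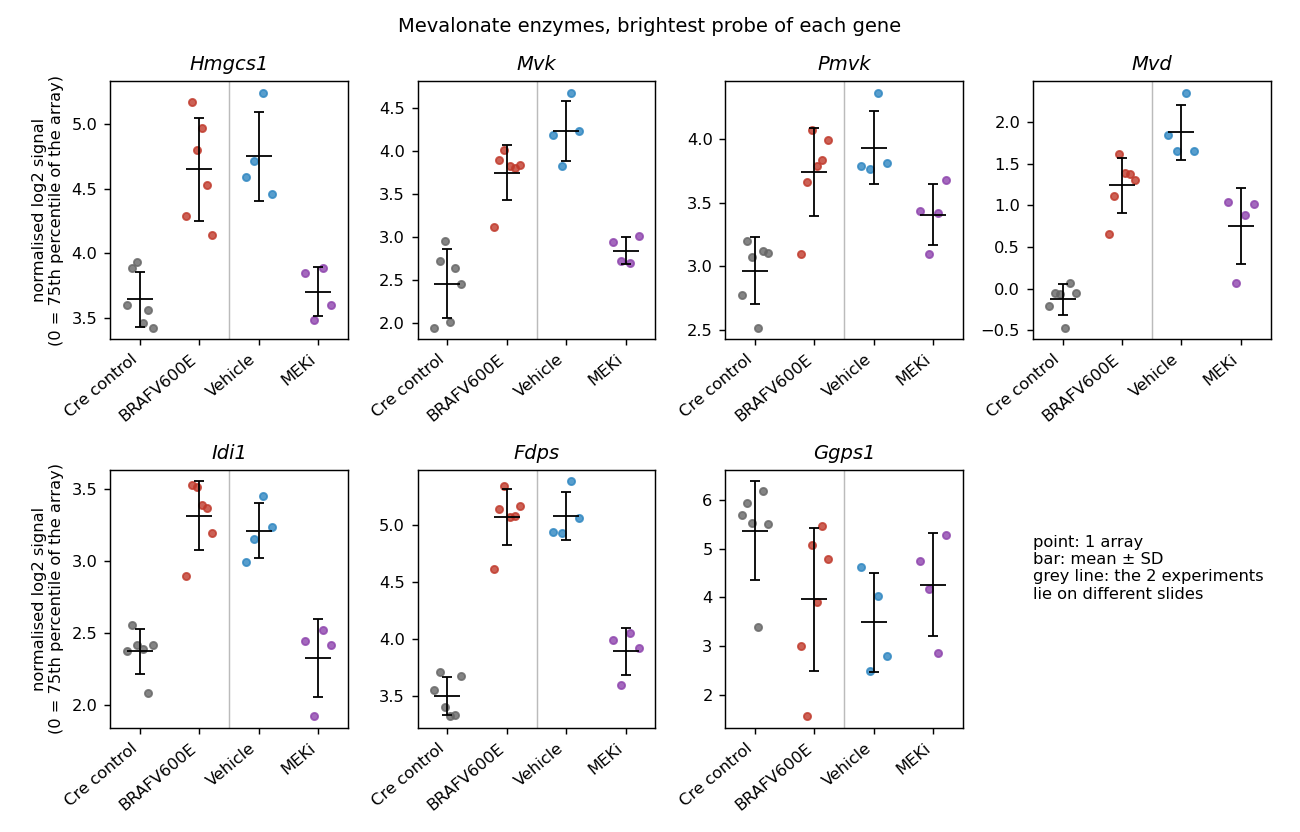
Normalised log2 signal (y axis, 0 = 75th percentile of the array) of the brightest probe of each of the 7 measured enzymes on every array, with the 4 groups on the x axis; points are arrays and bars mean ± SD. For the first 6 enzymes the BRAFV600E and Vehicle arrays sit above the Cre control and MEKi arrays of their own experiment, with an overlap for Pmvk between BRAFV600E and Cre control, while the Ggps1 groups overlap.

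Acat2, cytosolic acetyl-CoA acetyltransferase, begins the pathway by joining a pair of acetyl-CoA molecules. No probe carried its name, and the closest reading came from a probe named Acat3 (A_51_P139745), a closely related neighbouring gene, which also lists an Acat2 accession, so that these copies cannot be separated. That probe rose by 0.83 (SE 0.18, adjusted p over all probes = 0.0143) in BRAFV600E tissue, where 10.5% of probes were called. Its level ran from -1.57 to -0.94 in Cre control (median -1.29) and from -1.10 to 0.01 in BRAFV600E (median -0.40), and these ranges overlapped. MEKi arrays (-1.55 to -1.19) lay below Vehicle arrays (-1.12 to 0.01), but the difference of -0.74 was not called (adjusted p = 0.206, where 1.24% of probes were called). The other Acat3 probe, A_66_P101407, rose by 1.52 in BRAFV600E tissue (adjusted p = 0.00503).

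Hmgcs1, cytosolic HMG-CoA synthase, was read by a probe at chr13_random:114793-114852 (build mm9, as are all probe positions). Its level had a lowest, median and highest value of 3.42, 3.58 and 3.93 in Cre control and of 4.14, 4.67 and 5.18 in BRAFV600E. Every BRAFV600E array lay above every Cre control array, and the log2 fold change was 1.01 (SE 0.19, 95% interval 0.60 to 1.42, adjusted p = 0.00571). MEKi replicates 1 to 4 gave 3.84, 3.48, 3.88 and 3.60, and Vehicle replicates 1 to 4 gave 4.59, 4.71, 5.24 and 4.46. These groups lay apart too, by -1.05 (SE 0.19, adjusted p = 0.0387). A dimmer second probe, A_52_P119039, to a cDNA clone of the gene gave 1.07 (adjusted p = 0.166) and -0.53 (adjusted p = 0.672) and was not called in either comparison.

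Mvk, mevalonate kinase, adds the first phosphate to mevalonate (probe at chr5:114910540-114910599). Cre control levels ran from 1.94 to 2.95 around a median of 2.54, and BRAFV600E levels from 3.11 to 4.01 around 3.82. The lowest BRAFV600E array was replicate 1, and it still lay above the highest Cre control array. The log2 fold change was 1.29 (SE 0.21, 95% interval 0.85 to 1.74, adjusted p = 0.00241). MEKi gave 2.94, 2.72, 2.69 and 3.01, against 4.18, 3.83, 4.67 and 4.23 in Vehicle, with no overlap. That was a fold change of -1.39 on the log2 scale (SE 0.19, adjusted p = 0.0152), or 2.63-fold more in Vehicle. A second probe to Mvk, A_51_P169527, was called in both comparisons as well, at 1.46 (adjusted p = 3.66e-04) and -0.84 (adjusted p = 0.0482).

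Pmvk, phosphomevalonate kinase, adds the second phosphate (probe at chr3:89272867-89272926). Levels ran from 2.52 to 3.20 in Cre control (median 3.09) and from 3.10 to 4.07 in BRAFV600E (median 3.81). BRAFV600E replicate 1, the lowest of its group, lay within the Cre control range. The log2 fold change was 0.78 (SE 0.18, 95% interval 0.39 to 1.17, adjusted p = 0.0167). The call was lost with slide as a block (0.42, adjusted p = 0.245) and without the 3 Cre control arrays of low spike-in slope (0.94, adjusted p = 0.0672). MEKi gave 3.44, 3.10, 3.42 and 3.68, and Vehicle 3.79, 3.77, 4.37 and 3.81. The groups lay apart, but the difference of -0.53 was not called (SE 0.19, 95% interval -0.96 to -0.10, adjusted p = 0.206). The second Pmvk probe, A_51_P492410, separated BRAFV600E from Cre control on all arrays, at 1.06 (adjusted p = 0.00352), and gave -0.63 in the inhibitor experiment (adjusted p = 0.157).

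Mvd, mevalonate diphosphate decarboxylase, makes isopentenyl diphosphate (probe at chr8:124957750-124957809). Its level was near 0 in Cre control, from -0.47 to 0.07 with a median of -0.06, and ran from 0.65 to 1.61 with a median of 1.34 in BRAFV600E. The groups lay well apart, with a log2 fold change of 1.37 (SE 0.16, 95% interval 1.02 to 1.72, adjusted p = 3.81e-04). MEKi gave 1.04, 0.07, 0.88 and 1.02, with replicate 2 far below the other 3, and Vehicle gave 1.85, 1.65, 2.35 and 1.65. No MEKi array reached a Vehicle array, yet the difference of -1.12 was not called (SE 0.26, 95% interval -1.72 to -0.52, adjusted p = 0.0782).

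Idi1, isopentenyl diphosphate isomerase, converts isopentenyl into dimethylallyl diphosphate (probe at chr13:8891524-8891583). It ran from 2.08 to 2.56 in Cre control (median 2.40) and from 2.90 to 3.53 in BRAFV600E (median 3.38). The groups lay apart by a log2 fold change of 0.94 (SE 0.14, 95% interval 0.65 to 1.23, adjusted p = 0.00124). MEKi gave 2.44, 1.92, 2.52 and 2.42, against 3.00, 3.16, 3.45 and 3.24 in Vehicle. The difference of -0.88 passed the test (SE 0.17, adjusted p = 0.0455).

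Fdps, farnesyl diphosphate synthase, stands at the branch point (probe at chr3:88897549-88897608). It ran from 3.32 to 3.71 in Cre control (median 3.48) and from 4.62 to 5.35 in BRAFV600E (median 5.11). The gap between the highest control and the lowest BRAFV600E array exceeded the whole range of either group. The log2 fold change was 1.57 (SE 0.14, 95% interval 1.27 to 1.87, adjusted p = 3.76e-05). MEKi gave 3.99, 3.59, 4.05 and 3.92, and Vehicle 4.94, 4.93, 5.38 and 5.06, a difference of -1.19 (SE 0.16, adjusted p = 0.0146), or 2.28-fold more in Vehicle.

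The slide touched some of these calls. Within slide 1 alone, where 2 BRAFV600E arrays met all 6 Cre control arrays, Fdps (1.38, adjusted p = 0.0133) and Mvd (1.01, adjusted p = 0.0374) kept the call. Hmgcs1 stood at 1.09 (adjusted p = 0.0632), Mvk at 1.05 (adjusted p = 0.124), Idi1 at 0.84 (adjusted p = 0.0722) and Pmvk at 0.42 (adjusted p = 0.355). With slide as a block in the fit on all 12 arrays, Hmgcs1, Mvk, Mvd, Idi1 and Fdps were called, with adjusted p from 0.00136 for Fdps to 0.0432 for Mvk. The estimates were the same as within slide 1. Slide 2 held no Cre control array, so its 4 arrays entered only the residual variance. Those calls thus compare the same 2 BRAFV600E arrays with the 6 Cre control arrays. Without BRAFV600E replicate 2, and with no slide in the fit, all 6 enzymes remained called, with adjusted p from 1.38e-04 for Fdps to 0.0294 for Pmvk.

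**Figure D2:**
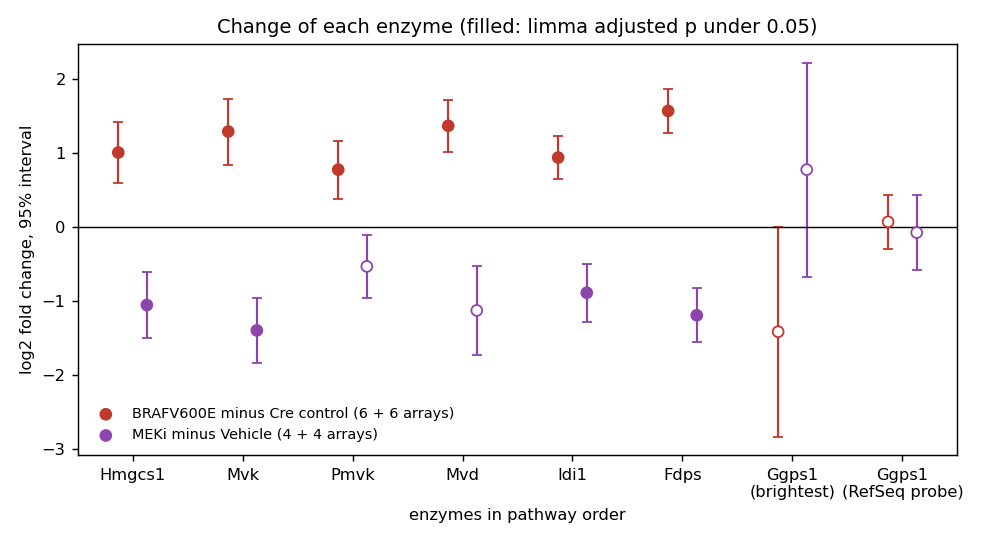
Log2 fold change of each enzyme (y axis, bars are 95% intervals) in pathway order (x axis) for BRAFV600E against Cre control and MEKi against Vehicle; filled points have a limma adjusted p under 0.05. The first 6 enzymes lie between 0.78 and 1.57 in the former and between -1.39 and -0.53 in the latter, and the Ggps1 RefSeq probe lies at 0.07 and -0.07.

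Ggps1, geranylgeranyl diphosphate synthase, makes the lipid that anchors Rab family proteins, and its 6 probes fell into separate kinds. The brightest, A_55_P2727267 at chr13:14154796-14154855, matches a cDNA clone and no RefSeq transcript. It varied widely within every group: from 3.39 to 6.18 in Cre control (median 5.61) and from 1.57 to 5.46 in BRAFV600E (median 4.34). MEKi gave 4.75, 4.17, 2.86 and 5.29 and Vehicle 4.62, 2.49, 4.04 and 2.80. The groups overlapped in both experiments, and neither the -1.41 of BRAFV600E (SE 0.65, adjusted p = 0.166) nor the 0.78 of MEKi (SE 0.63, adjusted p = 0.613) was called. With slide as a block, where the estimate rests on BRAFV600E replicates 1 and 2, the former became -3.09 (adjusted p = 0.0168).

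The 5 other Ggps1 probes lie between 14142964 and 14146020 on chromosome 13 and match RefSeq transcripts of the gene. The brightest of them, A_55_P2170569, ran from -0.25 to 0.38 in Cre control (median 0.18) and from -0.30 to 0.53 in BRAFV600E (median 0.36). Its difference was 0.07 (SE 0.17, 95% interval -0.29 to 0.43, adjusted p = 0.809), and in the inhibitor experiment -0.07 (SE 0.22, 95% interval -0.57 to 0.43, adjusted p = 0.917). Over the 5 probes the log2 fold change ran from -0.03 to 0.14 in BRAFV600E and from -0.12 to 0.14 in MEKi tissue. By limma 0 of the 5 were called in either comparison, and 0 had an unadjusted p under 0.05.

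**Figure D3:**
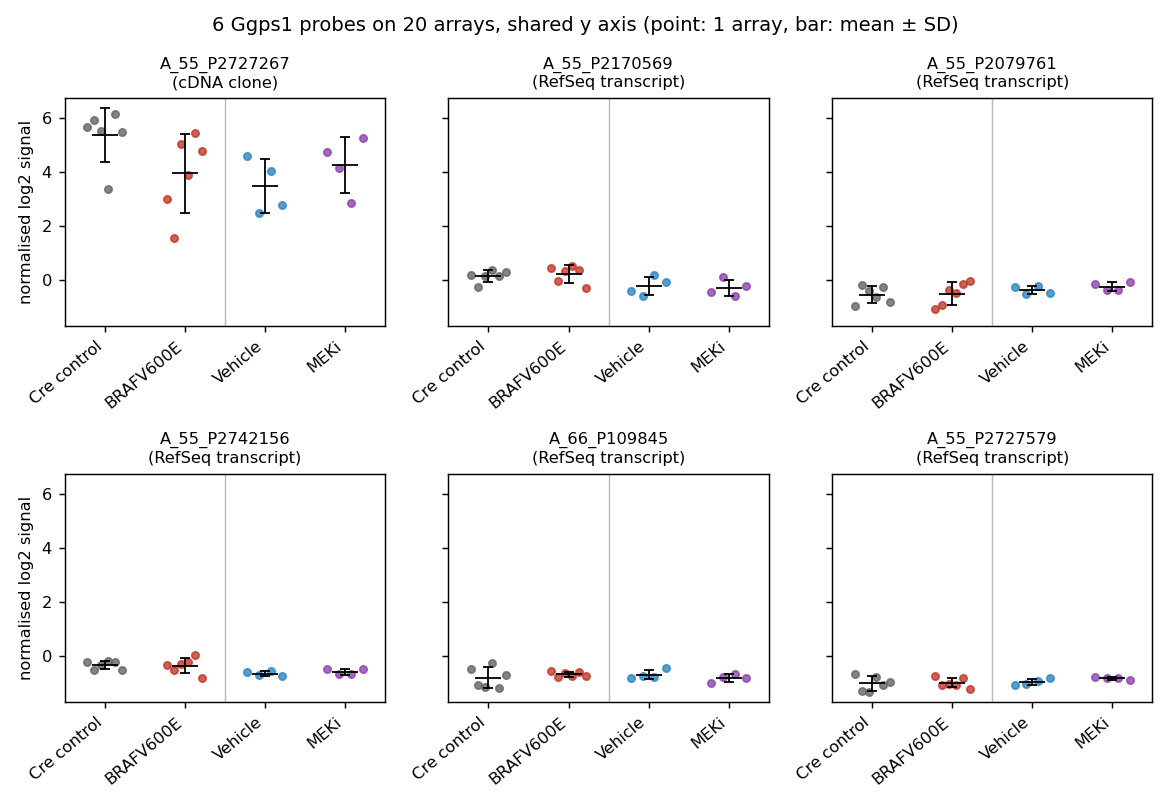
Normalised log2 signal (y axis, shared) of the 6 Ggps1 probes on each array, by group (x axis); points are arrays and bars mean ± SD. The clone probe spreads from 1.57 to 6.18 over the arrays of Cre control and BRAFV600E, while the 5 RefSeq probes stay close to 0 or below it with overlapping groups.

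Consecutive enzymes were next compared within each array, by taking the difference of their log2 signals, which any scaling of the whole array leaves untouched. An exact two-sided permutation test over arrays asked whether that difference moved between groups, with p-values adjusted over the 6 measurable steps. In BRAFV600E tissue 5 of the 6 steps moved. Pmvk lagged behind Mvk (difference -0.52, exact p = 0.00433, adjusted p = 0.00649). Mvd then gained 0.59 over Pmvk (exact p = 0.00216, adjusted p = 0.00649), Idi1 lagged behind Mvd (difference -0.43, exact p = 0.0152, adjusted p = 0.0182), and Fdps gained 0.63 over Idi1 (exact p = 0.00216, adjusted p = 0.00649). The steps into and out of Pmvk used its brighter probe, which rose by 0.78. Its second probe rose by 1.06, so the size of these steps depends on the probe. Neighbouring steps share an enzyme and are not independent. The difference of Mvd and Pmvk signals was -3.09 ± 0.11 in Cre control and -2.50 ± 0.11 in BRAFV600E (SD, n = 6 each), and none of the arrays overlapped. The final step, from Fdps to Ggps1, moved by -2.98 with the clone probe (exact p = 0.00433, adjusted p = 0.00649) and by -1.50 with the RefSeq probe (exact p = 0.00216, adjusted p = 0.00433). The step from Hmgcs1 to Mvk did not pass (0.28, exact p = 0.186). A p of 0.00216 is the smallest that 6 arrays against 6 allow. With slide as a block, or within slide 1, 0 of the 6 steps passed. There 2 BRAFV600E arrays meet 6 Cre control arrays, which allows no exact p under 0.0357, and the 5 steps from Mvk onward kept their direction.

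In MEKi against Vehicle tissue each of the 6 step differences had the opposite sign with the brightest probe of each gene. They were -0.34 from Hmgcs1 to Mvk, 0.86 from Mvk to Pmvk and -0.59 from Pmvk to Mvd. The later steps gave 0.24 from Mvd to Idi1, -0.30 from Idi1 to Fdps and 1.97 from Fdps to Ggps1. With 4 arrays against 4, the smallest exact p is 0.0286, reached by the steps from Mvk to Pmvk, Pmvk to Mvd and Idi1 to Fdps, and none of the 6 passed after adjustment (adjusted p = 0.0571 for these 3). With the RefSeq probe for Ggps1, 4 of the 6 passed (adjusted p = 0.0429 each in the permutation test), since the final step then separated the groups completely (difference 1.12). The difference of Fdps and Idi1 signals was 1.87 ± 0.08 in Vehicle and 1.56 ± 0.08 in MEKi (SD, n = 4 each). The second Mvk probe moved by -0.84 where the one used moved by -1.39. For Pmvk these values were -0.63 and -0.53. The size of the steps with Mvk or Pmvk thus depends on the probe. So does the sign of the step from Hmgcs1 to Mvk. Hmgcs1 moved by -1.05, which was more than the second Mvk probe and less than the one used. Without Vehicle replicate 2 none of the 6 passed with either Ggps1 probe, the 6 differences keeping their signs. With the RefSeq probe the final step was then 1.05 (adjusted p = 0.0686 in the permutation test).

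**Figure D4:**
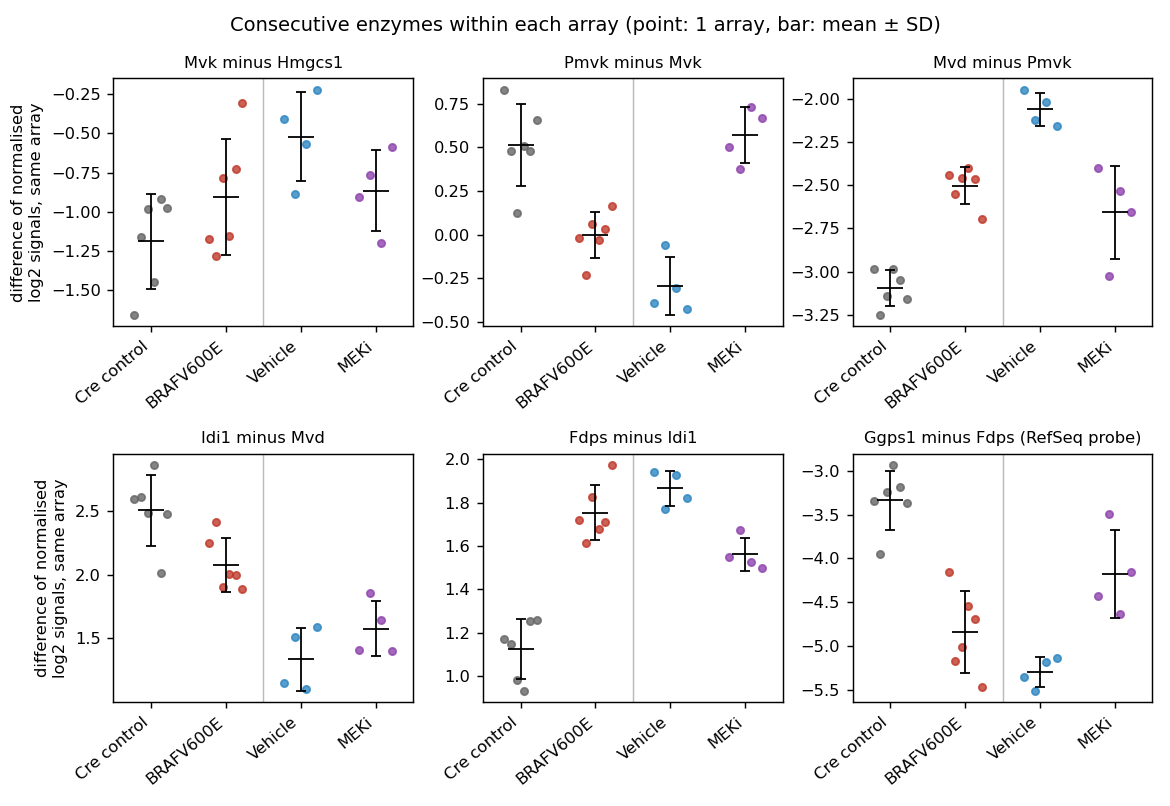
Difference of the normalised log2 signals of consecutive enzymes on the same array (y axis) by group (x axis), with Ggps1 read by its RefSeq probe; points are arrays and bars mean ± SD. With the brightest probe of every other enzyme, each BRAFV600E group mean is shifted from Cre control in the direction opposite to the MEKi shift from Vehicle. The Mvd minus Pmvk arrays of Cre control (mean -3.09) and BRAFV600E (mean -2.50) do not overlap.

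The genes around these steps were counted in lists. Downstream, 7 of the 11 tested enzymes from squalene to cholesterol rose in BRAFV600E tissue (median log2 fold change 0.84): Fdft1, squalene synthase (1.12, adjusted p = 0.00367), Sqle, squalene epoxidase (0.91, adjusted p = 0.0113), Lss, lanosterol synthase (1.42, adjusted p = 0.00114), Cyp51 (1.13, adjusted p = 0.00869), Nsdhl (1.49, adjusted p = 0.00231), Msmo1 (0.84, adjusted p = 0.0174) and Tm7sf2 (0.62, adjusted p = 0.022). All 12 were lower in MEKi tissue by value (median -0.89), and Fdft1 (-1.24, adjusted p = 0.0283) and Lss (-1.85, adjusted p = 0.0129) passed.

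Of 10 genes of SREBP control and sterol uptake, 4 rose in BRAFV600E tissue (list median 0.40). They were Insig1, the sterol-sensing retention protein of the SREBP complex (2.0, adjusted p = 0.0019), Srebf2, which encodes SREBP2 (0.67, adjusted p = 0.0182), its escort Scap (0.46, adjusted p = 0.0246) and the protease Mbtps2 (0.62, adjusted p = 0.0311). In MEKi tissue limma called 0 of the 10 (4 at an unadjusted p under 0.05, list median -0.21), with Insig1 at -1.38 (adjusted p = 0.111). By value 8 of the 10 were higher in BRAFV600E tissue and 6 were lower in MEKi tissue. The uptake gene Npc1l1 went the other way in both without being called, at -0.59 (adjusted p = 0.139) and 0.79 (adjusted p = 0.299).

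Upstream, 3 of 5 genes of acetyl-CoA supply or use rose in BRAFV600E tissue. They were the mitochondrial citrate carrier Slc25a1 (0.64, adjusted p = 0.0166) and the acetyl-CoA synthetases Acss1 (0.97, adjusted p = 0.0158) and Acss2 (0.65, adjusted p = 0.0134). Not called were Acly (0.29, adjusted p = 0.119) and Acaca, whose enzyme uses acetyl-CoA (0.31, adjusted p = 0.2). By limma 0 of the 5 were called in MEKi tissue (1 at an unadjusted p under 0.05, median -0.28). Of 2 isoenzymes of these steps (Acat1 and Idi2), limma called 0 in either comparison. At an unadjusted p under 0.05 there was 1 in BRAFV600E tissue, Acat1, the mitochondrial thiolase (-0.51, adjusted p = 0.0977), and 0 in MEKi tissue.

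The branches that consume farnesyl diphosphate outside sterol synthesis had smaller medians. Among 8 genes of the ubiquinone and heme A branch 4 rose in BRAFV600E tissue (median 0.47): Coq3 (0.83, adjusted p = 8.62e-04), Coq7 (0.40, adjusted p = 0.0452), and Pdss1 (0.73, adjusted p = 0.016) and Pdss2 (0.54, adjusted p = 0.0479), the subunits of the prenyl transferase that builds the ubiquinone tail. Of 6 dolichol genes, Nus1, a subunit of the dehydrodolichyl diphosphate synthase (0.69, adjusted p = 0.0056), and Dolk, dolichol kinase (0.46, adjusted p = 0.0423), rose, with a list median of 0.31. Of 11 protein prenylation genes only Rabggta, a subunit of the Rab geranylgeranyl transferase, rose (0.61, adjusted p = 0.0245), with a list median of 0.16. In MEKi tissue these 3 lists held 0 calls by limma, with 3, 2 and 1 genes at an unadjusted p under 0.05, and their medians were -0.15, 0.21 and -0.12.

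**Figure D5:**
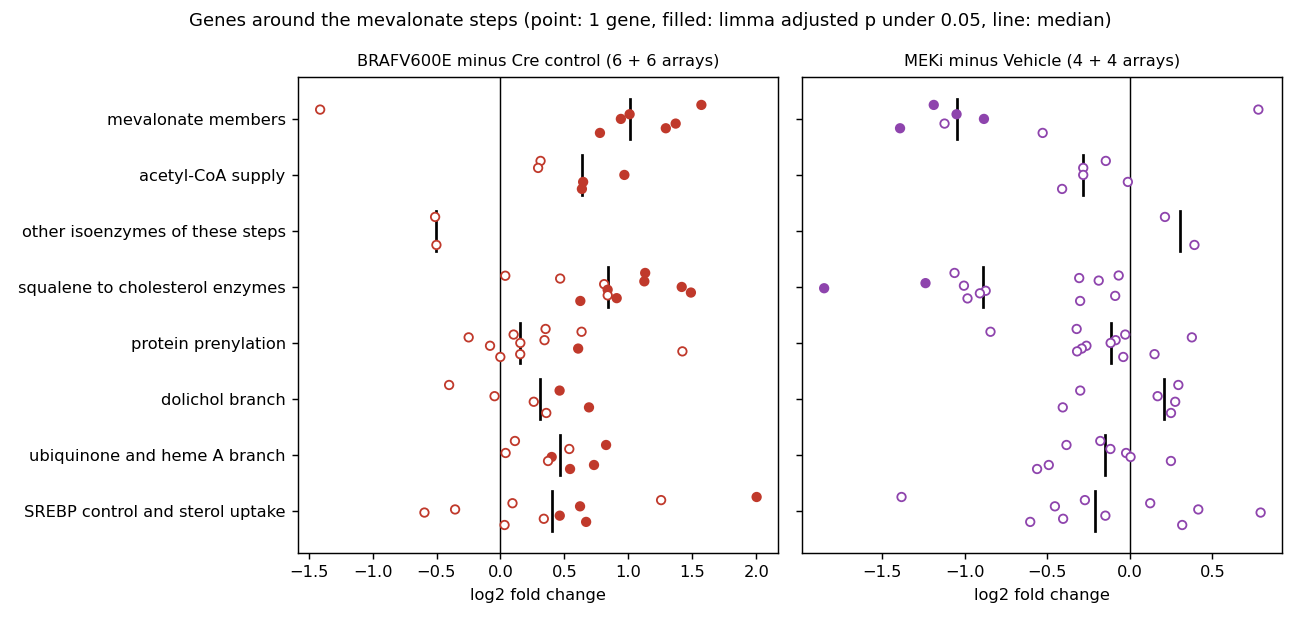
Log2 fold change of each gene (x axis) in the measured enzymes and 7 lists around them (rows) for BRAFV600E minus Cre control and MEKi minus Vehicle; filled points have a limma adjusted p under 0.05 and vertical lines are medians. In BRAFV600E the medians are 1.01 for the enzymes themselves, 0.84 for squalene to cholesterol, and 0.16 for protein prenylation.

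Other transcripts moved beside these enzymes. Of 13 genes of MAPK output, 10 rose in BRAFV600E tissue (Dusp4, Dusp5, Dusp6, Spry2, Spry4, Spred1, Spred2, Etv4, Etv5 and Phlda1) and Etv1 fell (list median 0.74), and 6 fell in MEKi tissue (Dusp4, Spry4, Spred1, Etv4, Etv5 and Phlda1, list median -1.50). Of 11 tested G2/M and proliferation genes 5 rose in BRAFV600E tissue (Ccna2, Cdk1, Plk1, Bub1 and Cenpe, list median 0.65), and 0 of 12 were called by limma in MEKi tissue (0 at an unadjusted p under 0.05, median 0.04). Gut epithelium markers had 3 of 9 called higher in BRAFV600E tissue (Krt19, Krt18 and Cdh1), with mean levels of 6.0 to 6.55 against 5.69 to 6.11 in Cre control. By value 6 of the 9 were higher and 3 lower, with a list median of 0.16. Of 10 enterocyte markers, however, 8 were lower by value (list median -0.43), Fabp2 being called lower and Alpi higher. Of 5 proximal intestine markers 3 were higher by value, with Gata4 called. Lct was not called (-2.89), though every BRAFV600E array lay below every Cre control array. Distal markers were lower by value for 3 of 4 tested, with 0 called by limma (2 at an unadjusted p under 0.05). Smooth muscle genes were higher by value for 6 of 8, with Actg2 and Des called. B lymphoid markers were lower by value for 4 of 5 tested, with the B cell factor Pax5 called. The adipocyte genes were split, 2 higher and 2 lower, with Plin1 called lower. All 6 T lymphoid markers were lower by value and 3 were called (Lck, Cd3g and Cd8a), with mean levels of -1.34 to 0.14 against -0.32 to 0.74. Macrophage markers had 2 of 6 called lower (Lyz2 and Csf1r), at 1.54 to 2.34 against 2.05 to 2.79.

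In MEKi tissue Krt19 was the epithelial marker called (-0.73, adjusted p = 0.0298), the epithelial level being 6.27 to 6.43 against 6.39 to 6.73 in Vehicle. All 6 T lymphoid markers were higher by value there (list median 0.79), with 0 called by limma and 4 at an unadjusted p under 0.05, and their mean levels of -0.56 to 0.60 overlapped those of Vehicle (-1.21 to -0.38). The distal small intestine markers averaged 1.13 to 2.07 on the MEKi arrays and 2.33 to 3.20 on Vehicle replicates 1, 3 and 4, against -0.80 on Vehicle replicate 2. Smooth muscle genes were higher by value for 7 of 8 (median 0.68). All 8 fibroblast and endothelium genes were lower (median -0.26). In both lists 0 were called by limma, with 0 at an unadjusted p under 0.05. Higher by value were 5 of 6 B lymphoid, 4 of 6 macrophage, 2 of 4 adipocyte and 6 of 10 enterocyte markers. Of these 0 were called by limma (0, 1, 2 and 1 at an unadjusted p under 0.05). Alpi stood at -1.70 (adjusted p = 0.158). The part of these cell types and regions in the enzymes' changes was not tested.

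Likeness was measured by Pearson correlation with the mean of the measured members across the 20 arrays, each gene centred within its experiment, among 15375 genes well above background on every array. It is a description, since the arrays share group differences and scaling. A member's own value was left out of the mean it was compared with. The members gave 0.976 for Mvd, 0.951 for Pmvk, 0.950 for Mvk, 0.925 for Fdps, 0.906 for Idi1 and 0.852 for Hmgcs1, whereas the Ggps1 clone probe gave -0.339. The 8 other genes with the highest values were Cyp51 (0.973), Fdft1 (0.952), Aacs (0.950), Kctd10 (0.946), Mmab (0.943), Lmna (0.942), S100a16 (0.937) and Tradd (0.935). Cyp51 and Fdft1 are enzymes of sterol synthesis, and Aacs, acetoacetyl-CoA synthetase, makes the substrate of HMG-CoA synthase from ketone bodies. Aacs rose by 1.07 in BRAFV600E tissue (SE 0.16, adjusted p = 0.00158) and stood at -1.02 in MEKi tissue (adjusted p = 0.0888). Mmab, which shares its upstream space with Mvk, rose by 0.81 (adjusted p = 0.0131) and stood at -0.71 (adjusted p = 0.0957). The Kctd10 probe (chromosome 5, start 114813581) lies beyond the Mmab probe (start 114883073) on the same side of Mvk. Lmna, which encodes lamin A and its prenylated precursor, rose by 1.31 (adjusted p = 0.00103) and stood at -0.77 (adjusted p = 0.131).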

How the data were processed

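RNA of intestinal tissue from 20 mice was hybridised to 1-colour Agilent mouse arrays. The authors extracted each scan with Agilent Feature Extraction 10.5.1.1 and deposited a background-subtracted processed intensity per spot, on a linear scale and not normalised between arrays, and marks of 0 or 1 that flag outlying or saturated spots and those well above background. The series matrix the authors deposited held the same intensity (100% of spots within 0.5%). The sample labels carry a treatment text on a statin that matches none of the 4 groups and was not used.

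Control and outlier spots were left out here, log2 processed signal minus the 75th percentile of the array was taken (the percentile ran from 539.8 to 1553.7), and copies of a probe were averaged. The brightest probe over the 20 arrays stood for a gene. Of 56605 probes, 34023 were named through RefSeq by accession, 9993 by symbol and 318 by synonym. Genes well above background on at least 6 of 12 or 4 of 8 arrays, with no outlier value in the comparison, were tested with limma 3.58.1 (R 4.3.3, no covariates, two-sided, Benjamini-Hochberg over all genes), and single probes over all named probes. All 7 measured members passed this filter in both comparisons. Consecutive enzymes were compared by an exact permutation test. Acat2 had no probe, so 6 steps remained. The scripts were tested on simulated data. The text names all members, the listed genes past the threshold and the 8 genes of most similar pattern. Members and lists were chosen with earlier results of these data known, and some listed genes are not reported here and were left out of the counts. Replicate numbers only name arrays. The alternatives covered background, scaling, filters, probes, slide, array position, Y-linked level, array weights and each array left out. Promoter windows came from RefSeq (GRCm38.p6). Probe positions are those of the files (mm9), and whether they lie in exons or UTRs was not analysed here.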

Additional observations from a re-analysis of the deposited data

Results flagged for a closer look

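Among 68 groups of 4 or 6 arrays, over the probes of the members and of Acat3, 7 held an array far from the others of its group by Dixon's criterion, which chance alone does in about 5% of groups. Mvk (A_55_P2058861) was 3.11 on BRAFV600E replicate 1, where the nearest array was 3.80. Both Pmvk probes were high on Vehicle replicate 3, at 4.37 (A_55_P2076533, nearest 3.81) and 3.53 (A_51_P492410, nearest 3.08). The latter probe was low on Cre control replicate 4, at 1.41 (nearest 1.77). Mvd (A_51_P355943) was 0.07 on MEKi replicate 2, where the nearest array was 0.88. The Ggps1 clone probe (A_55_P2727267) was 3.39 on Cre control replicate 4 (nearest 5.50), and a Ggps1 RefSeq probe (A_66_P109845) was -0.44 on Vehicle replicate 4 (nearest -0.76).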

How the results depend on the processing

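In BRAFV600E against Cre control, 6 members were called, and 6 to 6 when any array was left out, and 5 steps (5 to 5). Within slide 1, 2 members were called, and 0 steps both there and with slide as a block. The step from Hmgcs1 to Mvk then turned to -0.0382 in both. Fdps and Mvd were called in 28 of 28 alternatives. In MEKi against Vehicle, 4 members were called. Mvd was added, for a count of 5, with normexp background, a trended and robust variance, all 20 arrays in the fit, or array weights. The count was 0 without scaling between arrays and with array column as a covariate, 1 with the Y-linked level, and 2 with median scaling, without the filter on dim probes and with the mean of a gene's probes, while leaving out an array gave 1 to 3. Leaving out any 1 of the 8 arrays thus lost at least 1 call, and calls over all genes fell as well. Steps called went from 0 to 4 with the mean of a gene's probes or the RefSeq probe of Ggps1. The latter was chosen after seeing the data, as was leaving out the 3 Cre control arrays of low spike-in slope (0.759 to 0.843), which left 5 members called. The slope was 0 on the 4 BRAFV600E arrays of slide 2 as well, which that alternative kept and which the comparison within slide 1 leaves out. Ggps1 turned to 0.0734 in BRAFV600E with its RefSeq probe, and in MEKi to -0.0709 with it, to -0.1916 with it and without Vehicle replicate 2 (2 members and 0 steps called, an alternative also chosen after seeing the data) and to -0.0594 with the Y-linked level. No paired analysis was possible because the labels carry no replicate numbers shared between groups.

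Over all genes, 2461 were called in BRAFV600E (49.6% higher). Without scaling there were 9266 (98.1% higher, with the median gene at 0.79 and every member but Ggps1 above it), with normexp background 4798 (33.1% higher, median -0.14), with array weights 3851, with array column 1295, with slide as a block 1554 (31.9% higher), within slide 1 724 (26.1% higher) and without the low-slope arrays 434. Median scaling gave 2391 (72.8% higher, median gene 0.10). Leaving out an array gave 1473 to 2993. In MEKi, 373 were called (54.2% higher), 1208 with array weights, 562 with all 20 arrays in the fit, 234 without the dim filter, 74 without scaling, 54 with the Y-linked level (42.6% higher), 16 with array column (18.8% higher), and 85 to 368 with an array left out. Of the member probes, the second Hmgcs1 probe was the one not well above background on every array (5 of 6 in Cre control).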
